A study of Oryza sativa with 2 samples.

Results

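The 219 tags described here carried the prefix OsL and a number from 1 to 219 on a rice (Oryza sativa) SuperSAGE array, and were chosen by prefix and number alone. They made up 21.9% of the 1000 features of the array. The remaining 219 OsL tags, numbered from 220 to 438, served as their background, and the table also held 484 OsSC and 78 Osconst features. SuperSAGE reads a short tag from near the 3′ end of each transcript, and the array was built from oligonucleotides of 26 bases identical to such tags. Labelled RNA from mature leaf was hybridised to 1 array and labelled RNA from suspension-cultured cells to another. The labels give no cultivar, plant age, culture medium or replicate for either sample. Total RNA was reverse transcribed from an oligo-dT primer, amplified by in vitro transcription with biotin-labelled nucleotides and fragmented, so each array had 1 colour.

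A mature rice leaf is a differentiated organ whose messenger RNA is known to be rich in transcripts for photosynthesis, such as those of the small subunit of Rubisco and the chlorophyll-binding proteins. Suspension-cultured cells lack organs, live on sugar in liquid medium and keep dividing, so transcripts for the cell cycle and protein synthesis are prominent in such cells in general. Tags present in one sample and hardly in the other often belong to specialised functions, and tags shared by both often belong to functions common to most plant cells. To which the OsL tags belong is not known here. None of the 219 identifiers equalled a gene identifier, symbol, synonym or accession among the 39387 genes of the rice assembly ASM3414082v1. Apart from letter case, 1 identifier had the same letters as a gene synonym, which pairs no tag with that gene. Of 8 leaf markers and 6 markers of dividing cells, 0 and 0 could be recognised on the array, so the labels of the samples could not be checked against markers. No tag sequence was used here, and neither a sequence nor a gene is given for any tag.

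As a set, the low-numbered OsL tags gave a stronger signal in leaf than in cells. Their median intensity was 5820.0 in leaf, with quartiles of 1322 and 16494, and 241.4 in cells, with quartiles of 99.6 and 925.1. The median difference, leaf minus cells, was 3.66 on the log2 scale, which is 12.7-fold, and the quartiles of the difference were 1.09 and 5.83. The other OsL tags had median intensities of 947.1 in leaf and 393.3 in cells and a median difference of 0.49, so the low-numbered tags stood 3.18 higher on the log2 scale. Over all 1000 features the median difference was -0.25. With differences centred on that median, the low-numbered tags had a median of 3.92.

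Each value comes from 1 array per sample, so no difference could be set against replicate error, and no test was made between leaf and cells. Sample and array cannot be told apart, and in bulk RNA fewer cells of a type and less RNA per cell cannot be told apart either. The sources used here do not say what the prefixes and numbers stand for. If either was assigned from tag counts in these tissues, the direction of the OsL tags is no independent evidence of a difference.

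On the deposited values 165 of the 219 tags (75.3%) exceeded their cell signal at least 2-fold in leaf, a limit that 25.7% of all features and 37.0% of the other OsL tags passed. At least 2-fold higher in cells were 3 tags (1.37%), against 32.4% of all features and 22 of the 219 other OsL tags. The remaining 51 tags (23.3%) lay within 2-fold, against 41.9% of all features. Differences of at least 8-fold towards leaf were seen for 122 tags (55.7%), against 16.2% of all features and 17.8% of the other OsL tags. No low-numbered tag was 8-fold or more higher in cells, a limit that 9.80% of all features and 1 other OsL tag passed.

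**Figure D1:**
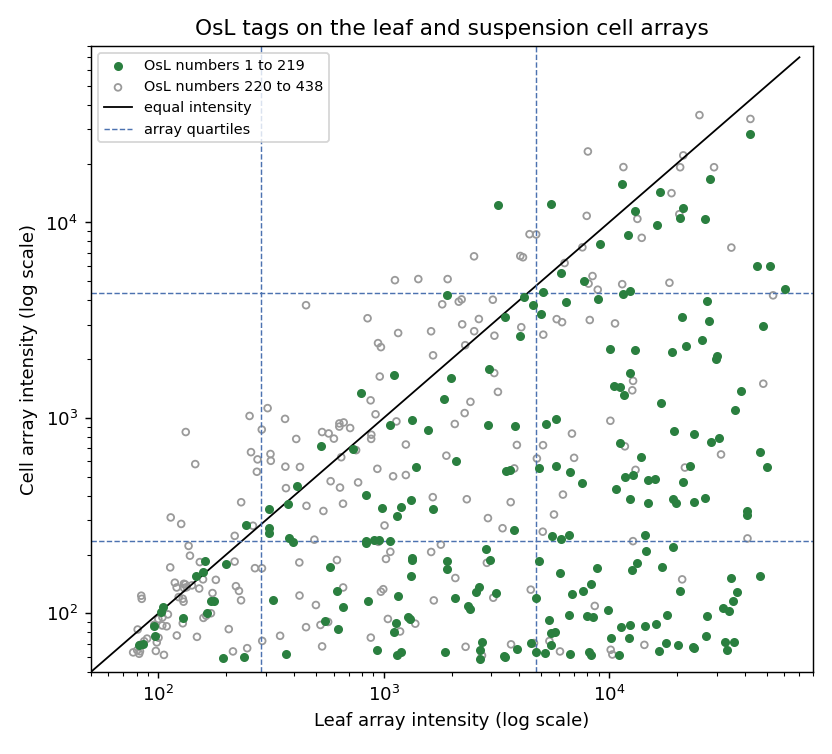
Intensity of OsL tags in leaf (horizontal, log scale) and in suspension cells (vertical, log scale). Filled green points are the 219 tags numbered 1 to 219, open grey points the 219 tags numbered 220 to 438, the line marks equal intensity and the dashed lines mark the quartiles of all 1000 features on each array. Most green points lie below the line, with 123 at or above the upper leaf quartile and 105 at or below the lower cell quartile.

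The scatter of leaf against cell intensities shows that the low-numbered tags spread along both axes rather than forming a single cloud. In leaf the tags spanned intensities of 82.1 to 60143, and in cells of 58.4 to 28349. The SD over tags of the log2 intensity was 2.37 in leaf and 2.24 in cells, so the tags varied about as much among themselves on either array. The Pearson correlation between the arrays was 0.34 and the Spearman correlation 0.29 over the 219 tags, against 0.62 and 0.59 over the 219 other OsL tags. These correlations describe tags that share 1 pair of arrays, and tags are not replicates.

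The brightest feature of the whole leaf array was a low-numbered tag, which read 60143 in leaf and 4558 in cells and so differed by 3.72 (log2). The lowest intensity of the whole cell array was also that of a low-numbered tag, with 2672 in leaf and 58.4 in cells. Low-numbered tags, which were 21.9% of all features, filled 38 of the 50 brightest places on the leaf array (76%). They filled 29 of the 50 dimmest places on the cell array, where another 18 were other OsL tags. Of the 50 features with the largest difference towards leaf, 42 were low-numbered tags and 8 were other OsL tags. They filled 2 of the 50 brightest places on the cell array, where 33 were OsSC features.

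The difference between leaf and cells did not gather around a typical value. The fullest step of 1 on the log2 scale was the lowest one above equality, from 0 to 1, which held 40 tags. The next 6 steps, up to a difference of 7, each held between 19 and 26 tags. Another 13 tags lay between 7 and 8, 13 between 8 and 9, and 1 above 9. Below 0 there were 11 tags down to -1 and 3 down to -2. The low-numbered tags thus covered the range from shared to leaf-bright without a gap. Among the other OsL tags, 116 of 219 fell between -1 and 1, and the steps above thinned out to 5 tags between 7 and 8 and 0 beyond.

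**Figure D2:**
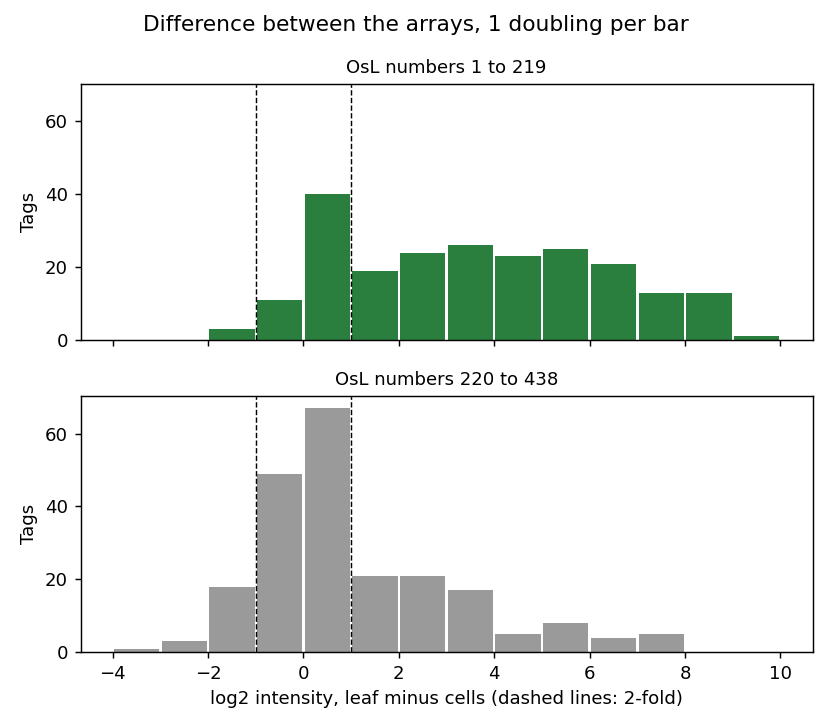
Number of tags (vertical) by the log2 intensity in leaf minus that in cells (horizontal), in steps of 1, with dashed lines at 2-fold. The upper panel holds the 219 tags numbered 1 to 219, which spread up to a difference of 9.01, and the lower panel the 219 tags numbered 220 to 438, of which 116 lie within 2-fold.

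A higher value in leaf than in cells, of whatever size, was seen for 205 of the 219 tags (93.6%) and a higher value in cells for 14, against 43.9% and 56.1% of all features. Of the 219 other OsL tags 148 (67.6%) were higher in leaf and 71 in cells. After quantile normalization the split of the low-numbered tags was 192 towards leaf and 26 towards cells. With differences centred on the Osconst median it was 215 and 4. Small differences therefore had no settled direction.

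To place each tag between leaf-only and shared signal, both arrays were divided at the quartiles of all 1000 features. A tag is called bright at or above the upper quartile (4752 in leaf, 4347 in cells) and dim when no higher than the lower quartile (286.3 in leaf, 234.4 in cells). The table has no detection calls, so dim does not mean absent. Bright in leaf were 123 low-numbered tags (56.2%), 79 were in the middle and 17 (7.76%) were dim. In cells 20 (9.13%) were bright, 94 in the middle and 105 (47.9%) dim. Bright in leaf were 50 of the other OsL tags (22.8%), and dim in leaf 63 (28.8%). In cells 28 of the other OsL tags (12.8%) were bright, 99 in the middle and 92 (42.0%) dim. The shares of low-numbered and other OsL tags thus lay further apart in leaf than in cells, where dim tags were frequent among both.

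The leaf-only end held 49 tags (22.4%) that were bright in leaf and dim in cells, against 5.70% of all features. Leaf intensities of these tags spanned 4760.2 to 46946 (median 12665) and cell intensities 61.0 to 219.3 (median 95.5). The ranges of these tags on the 2 arrays do not touch, which follows from how they were grouped. Their differences ran from 4.72 to 9.01 with a median of 7.09. Only 8 of the other OsL tags (3.65%) lay in this corner, with a median difference of 6.86. All 57 such features of the table were OsL tags.

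Next to that corner lay 55 tags (25.1%) that were bright in leaf and in the middle in cells, against 8.50% of all features. They had median intensities of 14902 in leaf and 754.3 in cells, and a median difference of 4.46. A further 40 tags (18.3%) were dim in cells and in the middle in leaf, against 7.50% of all features. Their median intensities were 1341 in leaf and 106.4 in cells, with a median difference of 3.79. At least 2-fold towards leaf were 39 of these 40 tags, as were 72 of the 75 features of the whole table in this position, so the count follows largely from the grouping.

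The shared end held 19 tags (8.68%) that were bright on both arrays, close to the 10.8% of all features and the 9.13% of the other OsL tags. Leaf intensities spanned 5077 to 60143 (median 16274) and cell intensities 4432 to 28349 (median 9760), with a median difference of 0.62. Of these, 13 lay within 2-fold, 5 leaned at least 2-fold towards leaf and 1 at least 2-fold towards cells. Among all 108 features bright on both arrays these counts were 66, 10 and 32, and among the 20 other OsL tags there 16, 3 and 1. In the middle of both arrays were 38 tags (17.4%), against 31.2% of all features and 66 of the other OsL tags (30.1%). They had medians of 1254 in leaf and 551.4 in cells. Their median difference was 0.68, with 17 at least 2-fold higher in leaf, 1 at least 2-fold higher in cells and 20 within 2-fold. Among all 312 features in the middle of both arrays these counts were 38, 88 and 186, and among the 66 other OsL tags there 16, 10 and 40. Dim on both arrays were 16 tags (7.31%), against 11.8% of all features and 52 of the other OsL tags (23.7%). Their medians were 152.2 in leaf and 101.4 in cells, and whether such signals exceeded background is unknown. No low-numbered tag was dim in leaf and bright in cells, a position held by 2.90% of all features. Of the last 2 low-numbered tags, 1 was dim in leaf and in the middle in cells, and 1 was in the middle in leaf and bright in cells.

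**Figure D3:**
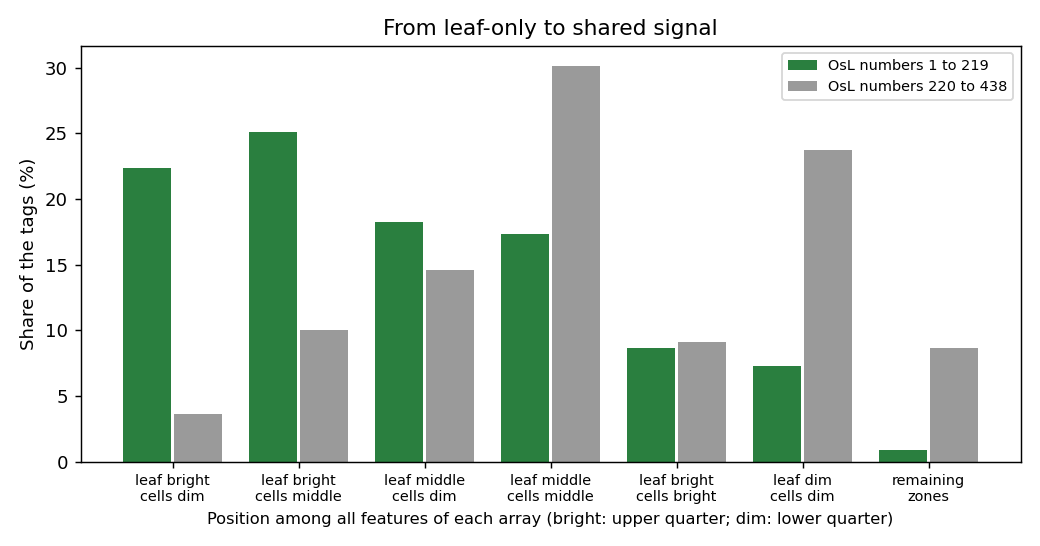
Share of tags in percent (vertical) by position on each of both arrays (horizontal), where bright means in the range from the upper quartile of all 1000 features upwards and dim in the range from the lower quartile downwards. Green bars are the 219 tags numbered 1 to 219 and grey bars the 219 tags numbered 220 to 438: bright in leaf and dim in cells are 22.4% and 3.65% of them, dim on both arrays 7.31% and 23.7%, and bright on both arrays 8.68% and 9.13%.

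The 51 tags within 2-fold were therefore of different kinds. Among them were 13 bright on both arrays and 20 in the middle of both. Another 14 were dim on both arrays, where a ratio near 1 does not show like expression. The other 4 lay in mixed positions. Centring on the Osconst median left 28 tags within 2-fold.

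The gap between low-numbered and other OsL tags was also seen when only tags of like brightness in leaf were set side by side. Among tags bright in leaf, the 123 low-numbered ones had median intensities of 14428 in leaf and 431.3 in cells, while the 50 others had 11038 in leaf and 2856 in cells. Their median differences were 5.23 and 2.52. Of the low-numbered tags that were bright in leaf, 39.8% were dim and 15.4% bright in cells, and of the 50 others 8 were dim and 20 bright in cells. Over all 250 features bright in leaf, 22.8% were dim and 43.2% bright in cells. Among these features, 22 of 24 Osconst and 47 of 53 OsSC features were bright in cells too.

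Bands of leaf intensity gave the same order in finer steps. Below 256 in leaf, 17 low-numbered tags had a median difference of 0.26 and 58 others one of 0.18. From 256 to 1024 the medians were 1.51 over 25 low-numbered and 0.12 over 58 other tags. From 1024 to 4096 they were 3.17 over 50 low-numbered and 1.14 over 48 other tags. From 4096 to 16384 they were 4.72 over 72 low-numbered and 2.88 over 40 other tags. Above 16384 they were 5.63 over 55 low-numbered and 1.92 over 15 other tags. The gap was thus small among the faintest tags and present in each brighter band, although the lowest band held 17 low-numbered and the highest 15 other tags. Median cell intensity in the low-numbered tags was 102.0, 236.7, 189.7, 376.2 and 563.8 from the lowest band to the highest. The medians in leaf were 158.3, 620.1, 1952, 8636 and 27182. Because the bands were cut on leaf intensity, the leaf medians had to rise from band to band. The cell medians of the other OsL tags in the same bands were 117.7, 539.8, 831.2, 1466 and 7439. They covered a wider range than the cell medians of the low-numbered tags, and the cause was not tested.

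Among the low-numbered tags themselves the difference between leaf and cells was largest at the lowest numbers. In 8 sets of consecutive numbers, the tags numbered 1 to 27 had a median difference of 5.87, and those numbered 28 to 55 one of 5.14. The medians were 3.67 for numbers 56 to 82, 3.67 for 83 to 110, 2.15 for 111 to 137, 2.85 for 138 to 164 and 2.75 for 165 to 192. For numbers 193 to 219 the median was 0.77. The course was not steady, and the quartiles of neighbouring sets overlapped widely.

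The count of tags at least 2-fold higher in leaf was 26 of 27 in the set with the lowest numbers and 13 of 27 in the set with the highest. The number bright in leaf and dim in cells was 11, 13, 6, 8, 4, 2, 3 and 2 over the 8 sets in order. The number bright on both arrays was 2, 1, 3, 3, 2, 4, 2 and 2, with no such course. Shared bright tags were thus spread over the whole number range, while leaf-bright and cell-dim tags were most frequent up to number 55.

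**Figure D4:**
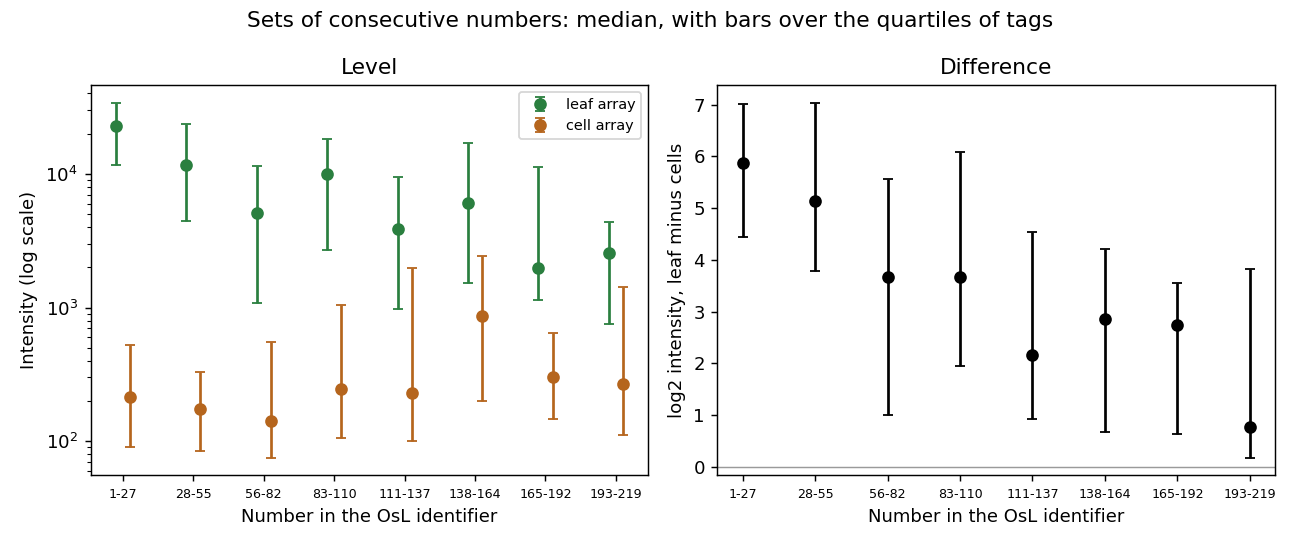
Low-numbered OsL tags in 8 sets of consecutive numbers (horizontal, 27 or 28 tags each), with points at the median and bars over the quartiles of tags, not over replicates. The left panel gives intensity on a log scale in leaf (green) and in cells (brown), and the right panel the log2 difference, leaf minus cells, whose median is 5.87 for numbers 1 to 27 and 0.77 for numbers 193 to 219.

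The level in leaf moved with the number more than the level in cells. Median leaf intensity was 22781 for numbers 1 to 27, 11752 for 28 to 55, 5077 for 56 to 82, 10054 for 83 to 110, 3887 for 111 to 137, 6099 for 138 to 164, 1983 for 165 to 192 and 2569.6 for 193 to 219. Median cell intensity ran from 141.6, for numbers 56 to 82, to 862.0, for numbers 138 to 164. Over the 219 tags the Spearman correlation of the number was -0.41 with the difference, -0.36 with the log2 leaf intensity and 0.17 with the log2 cell intensity. Over the 219 other OsL tags it was -0.12, 0.05 and 0.17. These tags share 1 pair of arrays, and the correlations are descriptions.

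Values on both sides of the number limit at 219 overlapped. The last tag inside it had 394.4 in leaf and 231.6 in cells, a difference of 0.77, and the first tag outside had 4151 in leaf and 6639 in cells, a difference of -0.68. The 20 tags just inside had a median difference of 1.69, running from -1.93 to 8.98, and the 20 just outside one of 0.88, running from -1.23 to 7.70.

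For individual tags, values below the lower quartile of an array were first raised to that quartile, so that near-floor readings did not set the order. The tag with the largest difference towards leaf was then OsL162, which read 46946 in leaf and 155.2 in cells. Its rank was 7 of the 1000 features in leaf and 811 in cells. Its log2 difference was 8.24 as deposited and 7.65 with the floor. OsL18 came next, reading 36879 in leaf and 128.7 in cells, and differed by 8.16 (log2) as deposited and by 7.30 with the floor. Both tags were among the brightest in leaf, and their cell values lay in the lowest quartile of the cell array.

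Towards cells the largest difference was that of OsL205, which read 3227 in leaf and 12261 in cells. This is a log2 difference of -1.93, or 3.80-fold towards cells. OsL214 read 5544 in leaf and 12413 in cells, with a log2 difference of -1.16. Both were well above the lower quartiles of the arrays. The last of the 3 tags at least 2-fold higher in cells had 1909.6 in leaf and 4275 in cells, also a difference of -1.16. Centred on the Osconst median, OsL205 stayed beyond 2-fold at -1.19, while OsL214 lay within 2-fold at -0.42.

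The brightest tag within 2-fold was OsL133, with 42027 in leaf and 28349 in cells. It ranked 11 in leaf and 12 in cells, so it was among the brightest features of both. Its log2 difference of 0.57 was 0.03 after quantile normalization and 1.31, beyond 2-fold, when centred on the Osconst median. OsL152 read 28147 in leaf and 16762 in cells. Its log2 difference was 0.75, which reached 1.00 when centred on all features and 1.49 when centred on the Osconst median. These tags stood at the shared end and OsL162 and OsL18 at the leaf-only end of the same number range.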

How the data were processed

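The authors' deposited values are intensities, 1 per feature and array, with 0 missing. Per the submitters' processing notes RMA was used; the sources used here do not give its settings, any later scaling or the number of probes per feature. The intensities were taken as linear because they reached 60143, and no background readings or detection calls accompanied them, so low values are a floor of unknown meaning. Differences were log2 leaf minus log2 cells with no pseudocount. With 1 array per group no test was made; tags 2-fold apart were counted as a description. The number of arrays limits the precision. Tags named in the text were, with values floored at each array's lower quartile, the 2 furthest towards each sample, and the 2 brightest within 2-fold. The members and lists were chosen with earlier results of these data known. Alternatives covered scaling, pseudocount, floor, filter, fold, brightness limits and number range. The scaling and counting steps were tested on simulated data and ran in Python 3.11.15 with pandas 2.3.3 and numpy 2.4.6; loess came from statsmodels 0.14.6 and plots from matplotlib 3.10.9.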

Additional observations from a re-analysis of the deposited data

How the results depend on the processing

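No result was set against replicates, so the values below show only how far a choice of processing moved it; the cause of each shift was not tested. The median difference of the low-numbered tags (3.66) was 3.92 centred on all features, 4.40 centred on the Osconst median, 3.48 after quantile normalization, 3.93 after loess, 3.44 with a pseudocount of 16, 3.12 with values floored at the lower quartiles, 4.19 without the lowest 25% of mean level (176 tags kept), 4.90 for numbers 1 to 110 and 3.58 as a mean. Its gap to the other OsL tags (3.18) was the same under both centrings, since these shift all features alike, and was 3.28 after quantile normalization and after loess, 2.99 with the pseudocount, 2.83 with the floor, 3.45 without the lowest 25%, 4.12 for numbers 1 to 110 and 2.47 from means. The count at least 2-fold higher in leaf (165 of 219) ran from 146 to 190 over the scalings, pseudocount, floor and fold limits. It was 144 of the 176 tags kept without the lowest 25%, and 95 of 110 for numbers 1 to 110. The count higher in cells (3) was 1 under either centring and after loess, and 0 at 4-fold and for numbers 1 to 110. Tags bright in leaf and dim in cells (49) numbered 70 when each array was divided into 3 equal groups and 120 with medians as limits. They numbered 63 of the 176 tags kept without the lowest 25%, and 38 of 110 for numbers 1 to 110. Tags bright on both arrays (19) numbered 30 with 3 equal groups and 49 with medians as limits. They numbered 11 of 176 without the lowest 25% and 9 of 110 for numbers 1 to 110. Without the lowest 25%, the quartiles were those of the kept features, so tags changed position without changing value. The signs of the 6 named tags held under each scaling, pseudocount and floor, settings that were added for single tags after seeing the data. Because 105 tags were at or below the lower quartile in cells, the size of the largest ratios rests on that floor. No array could be left out. No paired analysis was possible because each group had 1 array.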
